A study of Mus musculus with 37 samples.

Results

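The data described here are the T cell receptor beta repertoires of the 5 lymph node libraries that the labels call WTNT, all with the time label d105, out of 37 libraries in the series. The libraries were picked by those 2 labels. Genomic DNA from lymph node cell suspensions was amplified over the rearranged beta chain locus (TRB, on mouse chromosome 6) and sequenced, so that each read comes from a rearranged gene and not from a transcript. The labels give the genotype of the WTNT mice as FVBN, an inbred mouse strain, and name no agent for them. They do not spell out WTNT and do not give the sex of these mice, and each library carries an identifier of its own. The 18 other d105 libraries carry the genotype label MMTV-PyMT, a transgene that places the polyoma middle T oncogene under the mouse mammary tumor virus promoter, which is active mainly in mammary epithelium, so that females develop mammary tumors. All 18 received PTX, given at 10 mg/kg every 5 days from 85 days of age. They fell into PLX+PTX+aPD-1_R (n = 6), PLX+PTX+aPD-1_NR (n = 4), PLX+PTX (n = 6) and PTX (n = 2). PLX stands for chow with PLX3397 (pexidartinib) at 40 mg/kg per day from 80 days of age, and aPD-1 for an antibody to PD-1 at 1.0 mg per mouse from 87 days of age and 0.5 mg every 5 days after that. Mice without aPD-1 could receive an isotype control antibody (rat IgG2a), and BrdU and perfusion preceded collection, in a treatment text written for MMTV-PyMT females that does not name the WTNT mice. The 14 libraries at d95 carry the same treatment labels as these 18 and enter only the counts of shared long joints over all 37 libraries. The suffixes R and NR are used as written. Genotype and treatment both separate the WTNT mice from all the others, so a difference between the 2 sets cannot be told apart into one or the other.

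A TRB gene is assembled in each developing T cell by joining 1 variable (V), 1 diversity (D) and 1 joining (J) segment, with bases trimmed from the segment ends and others added without a template. The stretch across the joint encodes the third complementarity-determining region (CDR3), which contacts the peptide that the receptor recognises, while the V segment alone encodes the loops that mostly contact the presenting molecule. A lymph node of an unchallenged mouse is known to hold mainly naive T cells, which form a broad repertoire of small clones.

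The anatomy of a CDR3 is shown by 3 rearrangements, with the bases between the end of V and the start of J in capitals, D segment included, and the rest in lower case. The first is one of the nucleotide forms of a receptor found in all 5 WTNT mice, the second is the largest clonotype of WTNT mouse 3 by reads, and the third holds a long joint that occurred in WTNT mice 2 and 5 only among the 5.
TRBV1 TRBJ2-7: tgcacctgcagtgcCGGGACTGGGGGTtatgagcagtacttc
TRBV2 TRBJ2-4 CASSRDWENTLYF: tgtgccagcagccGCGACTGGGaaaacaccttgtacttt
TRBV24 TRBJ2-7 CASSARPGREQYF: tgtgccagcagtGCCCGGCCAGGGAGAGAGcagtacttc
The first holds 13 bases between V and J, the second 9 and the third 18. Where the V and J matches overlap, the overlap enters the means of bases between V and J below as a negative number. A nucleotide clonotype below is 1 such CDR3 with its V and J segment, an amino acid clonotype is a V, a J and a translated CDR3, and lengths count amino acids from the conserved cysteine to the final phenylalanine, both included.

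The 5 WTNT libraries held 1350579, 1765833, 1404068, 1475178 and 1669178 reads in mice 1 to 5, against 1090573 to 2831566 in the MMTV-PyMT libraries at d105. They listed 66306, 68166, 63088, 59073 and 79706 nucleotide clonotypes, against 23679 to 91867 in the MMTV-PyMT libraries. No WTNT library was the shallowest or the smallest of the 23. Reads are PCR products without molecular identifiers, so the 95% intervals given below cover counting error only, and 3 reads, the upper limit that a count of 0 allows, were 0.000170% to 0.000222% of a WTNT library. The tissue label could not be checked against marker genes, since the libraries hold TRB genes only.

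WTNT mice 2 and 5 shared more rearrangements with long joints than the other pairs of WTNT mice at 2 of 3 cutoffs. Of nucleotide clonotypes with at least 18 bases between V and J, a cutoff chosen after the data were seen, mice 2 and 5 had 30 in common, against 2 to 9 in the other 9 pairs of WTNT mice and a median of 3 over the 666 pairs of all 37 libraries, among which 30 was the highest count. These pairs are of unequal size, since the 14 libraries at d95 held only 90648 to 917752 reads and 2470 to 32057 nucleotide clonotypes each. With a cutoff of 15 bases mice 2 and 5 shared 148, against 36 to 62 in the other WTNT pairs, while at 21 bases they shared 3, against 0 to 3, and 7 of the 666 pairs shared more. The clonotypes with at least 18 such bases numbered 6917 in mice 2 and 5 together, while WTNT mouse 1 and PLX+PTX+aPD-1_R mouse 1 at d95 shared 25 with 4575 between them. None of the 30 was found in WTNT mice 1, 3 or 4, and 26 were in no MMTV-PyMT library at d105. The share of all nucleotide clonotypes absent from those libraries was not computed, so the 26 have no background to be read against. Absence from further WTNT mice was common over all joint lengths. Of all 318490 nucleotide clonotypes of the WTNT mice, 95.5% were in 1 mouse, 11731 in 2, 2033 in 3, 512 in 4 and 129 in 5. The 30 had a median of 26.5 reads in mouse 2 and 24.5 reads in mouse 5, and 5 of them had a single read on one side. Examples are given with the bases between V and J in capitals, and all 3 were found in mice 2 and 5 and in no other library at d105.
TRBV3 TRBJ1-1 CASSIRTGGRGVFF, 42 reads in mouse 2 and 66 in mouse 5: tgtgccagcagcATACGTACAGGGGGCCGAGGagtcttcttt
TRBV4 TRBJ2-7 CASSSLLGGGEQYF, 29 reads in mouse 2 and 42 in mouse 5: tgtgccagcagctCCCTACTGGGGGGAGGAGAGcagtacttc
TRBV3 TRBJ1-1 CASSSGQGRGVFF, 53 reads in mouse 2 and 25 in mouse 5: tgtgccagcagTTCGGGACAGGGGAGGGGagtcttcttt
Over all joint lengths mice 2 and 5 shared 3451 nucleotide clonotypes, against 1848 to 2369 in the other 9 pairs. The labels say nothing of a shared animal, extraction or run, and how the shared clonotypes arose was not tested. Results on sharing are given with and without these mice.

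V segment use was nearly the same in all 5 WTNT mice. Of 21 V segments listed, 12 held at least 0.1% of clonotypes on average. Shares refer to the segments listed, and whether the assay amplified every V segment of the locus was not tested. Each listed clonotype was counted once whatever its number of reads, although a clonotype with few reads can be missed. The mean share of clonotypes under 10 reads ran from 24.0% for TRBV19 to 54.5% for TRBV5. TRBV24 was the most used, with 16.2%, 16.8%, 16.4%, 16.9% and 17% of nucleotide clonotypes in mice 1 to 5. TRBV1 followed at 15.5%, 15%, 15.5%, 15.2% and 14.9%, and TRBV3 at 13.7%, 14%, 13.7%, 13.3% and 13.8%. The ranges of these 3 segments did not overlap. TRBV2 averaged 11.7% ± 0.301 (SD, n = 5), TRBV5 10.9% ± 0.104 and TRBV19 8.93% ± 0.178. TRBV4 averaged 8.39% ± 0.206, TRBV29 6.13% ± 0.155 and TRBV26 4.98% ± 0.103. Least used were TRBV20 at 1.66% ± 0.0552, TRBV23 at 1.01% ± 0.0888 and TRBV30 at 0.556% ± 0.0382. All neighbours in this order were apart in every mouse and their ranges over the 5 mice did not overlap.

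J segments also kept their order in all 5 mice. The TRBJ2 cluster, the 3′ one of the 2 J clusters of the locus, held 78.6% ± 0.402 of clonotypes and the TRBJ1 cluster 21.4% ± 0.402. TRBJ2-7 led with 21.4%, 21.4%, 21.7%, 21.4% and 21.4% in mice 1 to 5. TRBJ2-5 averaged 14.8% ± 0.318, TRBJ2-1 12.7% ± 0.0728, TRBJ2-3 12.2% ± 0.149, TRBJ2-4 9.28% ± 0.0938 and TRBJ2-2 8.19% ± 0.0780. In the TRBJ1 cluster, TRBJ1-1 averaged 6.96% ± 0.145, TRBJ1-2 3.71% ± 0.0573, TRBJ1-6 3.58% ± 0.0778, TRBJ1-4 2.88% ± 0.0881, TRBJ1-3 2.54% ± 0.0568 and TRBJ1-5 1.67% ± 0.191. The ranges of TRBJ1-2 and TRBJ1-6 over the mice overlapped, while those of every other neighbouring pair were apart. Over the 24 segments the coefficient of variation between the 5 mice had a median of 2.07%, from 0.573% for TRBJ2-1 to 11.4% for TRBJ1-5.

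What was counted changed these shares more than the mouse did. The files also hold a normalized clone count, whose ratio to the reads varied by at most 1.29% (coefficient of variation) within the 68 pairs of V and J that had at least 5 clonotypes of 100 reads or more. By this count TRBV4 led the WTNT mice with 21% ± 0.365, followed by TRBV5 at 16.1% ± 0.587 and TRBV3 at 15.5% ± 0.295. On that scale TRBV24 held 7.96% ± 0.241, against 19.7% ± 0.873 of reads and 16.7% ± 0.328 of clonotypes. TRBV5 showed the opposite contrast, with 6.31% ± 0.175 of reads against 10.9% of clonotypes. TRBJ1-5 held 1.67% of clonotypes but 0.246% ± 0.0619 of reads, and 95.3% of its clonotypes had fewer than 10 reads. The segments with the highest median reads per clonotype were TRBV29 at 37.6 reads and TRBJ1-2 at 37.8 reads, against 8.0 reads for TRBV5 and 2.0 for TRBJ1-5. Fewer cells of a clone and less efficient amplification of a segment cannot be told apart in reads.

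**Figure D1:**
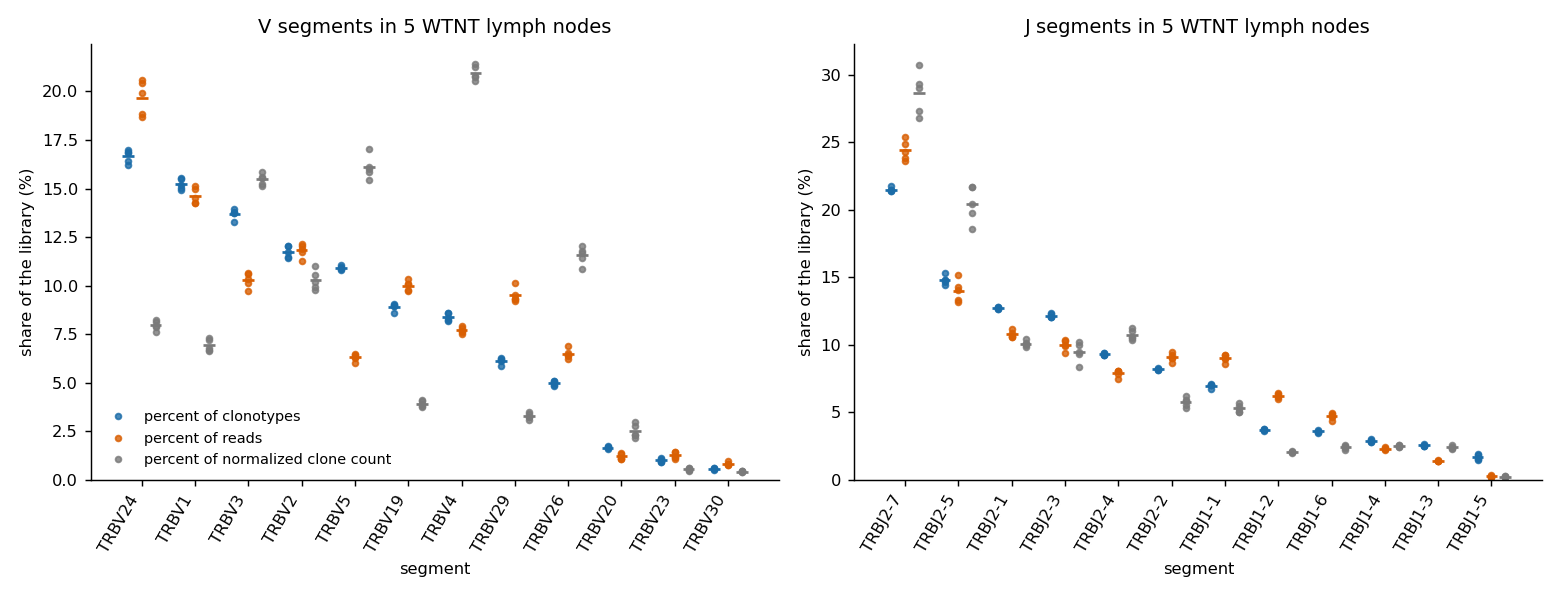
Share of each V segment (left) and J segment (right) in the 5 WTNT mice, in percent of nucleotide clonotypes, of reads and of the authors' normalized clone count, with 1 point per mouse and a bar at the mean. Points of one scale lie close together, while the 3 scales differ: TRBV4 holds 8.39% of clonotypes and 21% of the normalized clone count.

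Segments tied to particular T cells were read as groups. The superantigen list was a choice of 5 V segments, not a full set (TRBV26, TRBV19, TRBV29, TRBV24 and TRBV1). Their receptors are known to react with mouse mammary tumor virus or other endogenous superantigens. These 5 held 51.9% ± 0.215 of clonotypes and 60.3% ± 0.371 of reads, but 33.7% ± 0.479 of the normalized clone count. The 3 segments frequent in invariant T cells (TRBV19 in mucosal-associated invariant T cells, TRBV29 and TRBV1 in invariant natural killer T cells) held 30.3% ± 0.329 of clonotypes and 34.1% ± 0.592 of reads, but 14.1% ± 0.486 of the normalized clone count. A V segment alone does not define these cells, and TRBV13, which both use, belongs to the next group.

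The libraries listed reads for 9 V segments that lie in a germline deletion FVB/N mice are known to carry. These segments (TRBV12-1, TRBV12-2, TRBV13-1, TRBV13-2, TRBV13-3, TRBV14, TRBV15, TRBV16 and TRBV17) held 341, 5913, 1506, 12367 and 1170 reads in WTNT mice 1 to 5. That was 0.0252%, 0.335%, 0.107%, 0.838% and 0.0701% of reads, with the 95% Wilson interval for mouse 4 from 0.824% to 0.853%. WTNT mouse 4 was the highest of all 23 libraries at d105, in which the MMTV-PyMT mice ranged from 0.0171% to 0.678%. Over all V segments, 95.5% of the 318490 nucleotide clonotypes were found in 1 WTNT mouse and 0.0405% in all 5. Of the 288 nucleotide clonotypes on the list, 281 were found in 1 WTNT mouse, 230 of them with fewer than 10 reads, and 3 in all 5. Most reads came from a single one, TRBV13-2 TRBJ2-5 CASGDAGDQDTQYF, with 205, 4044, 1135, 9580 and 844 reads in mice 1 to 5, which was 74.2% of the list's reads. It was the largest clonotype of WTNT mice 2 and 4, and 17 of the 18 MMTV-PyMT libraries held it too, with up to 12224 reads. The 3 clonotypes found in all 5 mice are printed with the bases between V and J in capitals.
TRBV13-2 TRBJ2-5 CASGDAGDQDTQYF: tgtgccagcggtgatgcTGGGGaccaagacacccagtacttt
TRBV13-3 TRBJ2-4 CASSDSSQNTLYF: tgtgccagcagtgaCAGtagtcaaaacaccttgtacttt
TRBV13-1 TRBJ1-2 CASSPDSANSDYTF: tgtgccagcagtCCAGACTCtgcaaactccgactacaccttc
TRBV13-3 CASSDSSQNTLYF had 6, 486, 97, 943 and 100 reads in mice 1 to 5, and TRBV13-1 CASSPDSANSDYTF had 15, 352, 111, 862 and 25 reads. All 3 were highest in mouse 4, next in mouse 2 and lowest in mouse 1. Members of the TRBV12 and TRBV13 families are near-identical copies, so that reads may be split between them by the authors' assignment. Whether these clonotypes came from the mice or from elsewhere was not tested.

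Most pairs of V and J segments held more or fewer clonotypes than the use of each segment alone would give. For each pair the number of clonotypes was set against the number expected from the V and J shares of the same mouse, as log2 of observed over expected with 0.5 added to each, for the 135 pairs with at least 20 expected clonotypes in every WTNT mouse. Of these pairs 110, or 81.5%, differed from 0 at an adjusted p under 0.05 (limma's moderated test with Benjamini-Hochberg adjustment), 51 above and 59 below, and 102 of the 110 had the same sign in all 5 mice. Most departures were small, with a median absolute log2 of 0.24 and 12 pairs past 2-fold. Pairs with a TRBJ1 segment departed further, with a median absolute log2 of 0.38 over 63 pairs, than pairs with a TRBJ2 segment, at 0.16 over 72 pairs. The TRBJ1 cluster held 21.4% of clonotypes and the TRBJ2 cluster 78.6%, so smaller counts entered the TRBJ1 pairs. Of the 63, 9 were TRBJ1-5 pairs, with medians of 1 to 3 reads per clonotype. The part of counting error in this contrast was not tested.

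TRBV5 with TRBJ2-4 was the scarcest combination. It gave a log2 of -2.35, -2.25, -2.32, -2.11 and -2.19 in mice 1 to 5, with 144 clonotypes observed per mouse against 682 expected (adjusted p = 3.45e-07, limma). All 5 mice lay far below 0. Next came TRBV5 with TRBJ1-5 at -1.98 ± 0.12 (SD, n = 5), TRBV30 with TRBJ1-1 at -1.81 ± 0.52, TRBV4 with TRBJ1-5 at -1.63 ± 0.18 and TRBV19 with TRBJ1-5 at -1.59 ± 0.17. TRBV29 with TRBJ1-5 was the most over-represented at 1.56, 1.74, 1.58, 1.45 and 1.71 in mice 1 to 5, or 212 clonotypes against 68.8 expected (adjusted p = 2.29e-06, limma). TRBV26 supplied the next 3, with TRBJ1-2 at 1.22 ± 0.11, TRBJ1-5 at 0.98 ± 0.20 and TRBJ1-3 at 0.98 ± 0.09, and TRBV1 with TRBJ1-5 stood at 0.87 ± 0.10.

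Several of these pairs were read thinly. TRBJ1-5 pairs had medians of 1 to 3 reads per clonotype, against a median of 22.4 over all pairs tested, and TRBV5 with TRBJ2-4 had a median of 1.90 reads. For that last pair the summed normalized clone count was 93.0 times the summed reads. By normalized clone count its log2 was -0.95, that of TRBV19 with TRBJ1-5 was 0.59 and that of TRBV1 with TRBJ1-5 was -0.13. Of the 110 pairs called by clonotypes, 40 had the other sign by normalized clone count, and 31 of these 40 passed the test there as well. Across the 135 pairs the 2 scales had a Spearman correlation of 0.42, given as a description since the pairs share segments and libraries. The part that amplification plays in these departures was not tested.

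**Figure D2:**
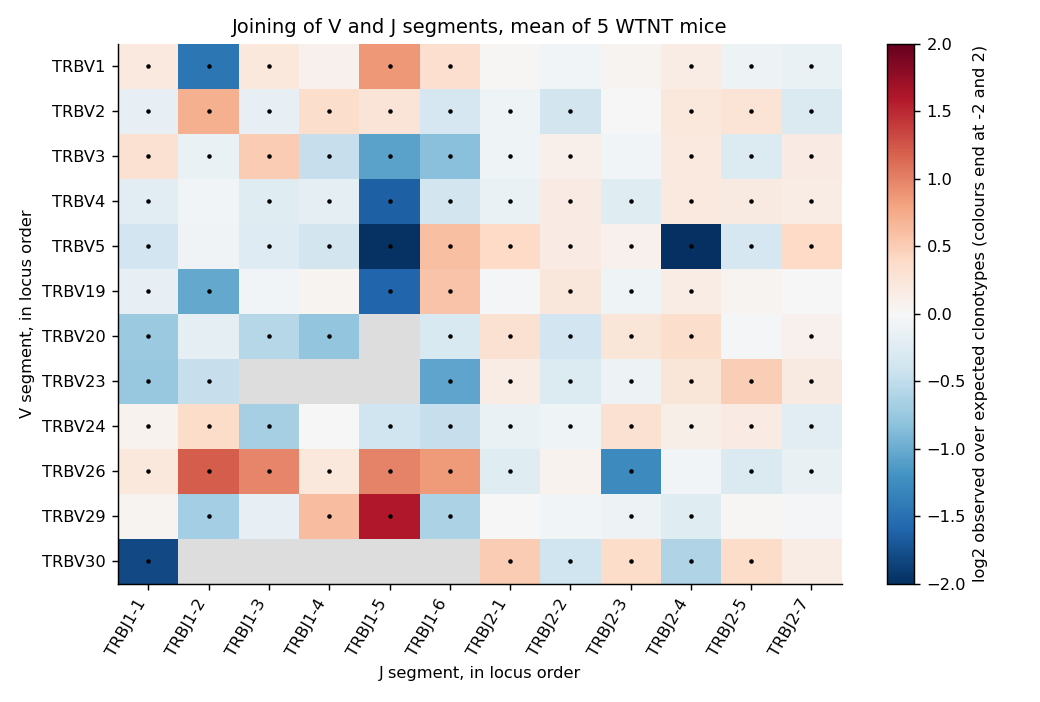
Joining of V segments (rows, in locus order) with J segments (columns, in locus order) in the 5 WTNT mice, as the mean log2 of observed over expected clonotypes, with colours ending at -2 and 2, dots on pairs with an adjusted p under 0.05 and grey for pairs not tested. The TRBJ1-5 column holds both strong colours, from TRBV5 at -1.98 to TRBV29 at 1.61, while the TRBJ2 columns are pale except for TRBV5 with TRBJ2-4 and TRBV26 with TRBJ2-3.

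The CDR3 length spectrum was narrow and centred on 14 amino acids in each WTNT mouse. Length 14 took 30.1%, 30.3%, 30.2%, 30.3% and 30.0% of nucleotide clonotypes in mice 1 to 5, length 15 took 24.5% ± 0.183 and length 13 took 20.3% ± 0.169. Together these 3 lengths held 75.0% ± 0.125, while CDR3s of at most 11 residues made up 3.54% ± 0.103 and those of at least 18 residues 0.713% ± 0.0420. Mean length was 14.06 ± 0.0113 residues, made of 14.1 ± 0.0168 bases from V, 10.1 ± 0.0188 between V and J and 18 ± 0.0330 from J. V segments had lost 2.73 ± 0.0168 bases and J segments 3.01 ± 0.0320, and 1.00% ± 0.0388 of clonotypes had no base between V and J.

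Each V segment brought its own length. Of 12 V segments 11, or 91.7%, differed from the mean over segments of the same mouse at an adjusted p under 0.05 (limma, Benjamini-Hochberg), and TRBV23 did not. TRBV5 gave the longest CDR3s, with a mean of 14.6 residues (0.70 above the mean over segments, SE 0.01, adjusted p = 1.08e-10 by limma), and TRBV2 followed at 14.4 (0.54 above). For both the most common length was 15, with 33.7% ± 0.250 of TRBV5 and 31.5% ± 0.821 of TRBV2 clonotypes. TRBV30 and TRBV20 gave the shortest, both at 13.1 residues (0.74 below), with 32.8% ± 2.76 of TRBV30 and 33.5% ± 1.60 of TRBV20 clonotypes at length 13. The other segments had their peak at length 14: TRBV1 averaged 14.17 and TRBV24 14.16, overlapping each other, then came TRBV3 at 13.93, TRBV23 at 13.85, TRBV19 at 13.81, TRBV4 at 13.79, TRBV26 at 13.70 and TRBV29 at 13.67. Ranges over mice overlapped within TRBV3 and TRBV23, TRBV23 and TRBV19, TRBV19 and TRBV4, TRBV26 and TRBV29, and TRBV20 and TRBV30. By reads, and for clonotypes of at least 10 reads, TRBV3 lay below the mean over segments (-0.04 in both) and TRBV23 above it (0.21 and 0.10).

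The length differences followed the bases left from V more than those between V and J. TRBV5 CDR3s kept 15.7 ± 0.0313 bases of V after losing 1.29 ± 0.0310, and TRBV30 CDR3s kept 11.4 ± 0.127 after losing 2.63 ± 0.127. TRBV4 lost the most, 4.62 ± 0.0225 bases. Bases between V and J ran only from 8.99 ± 0.0581 for TRBV26 to 11 ± 0.0383 for TRBV4. Among J segments TRBJ2-2 gave the longest CDR3s at 14.77 ± 0.0312 residues and TRBJ2-7 the shortest at 13.48 ± 0.00908. TRBJ2-7 had nevertheless the most bases between V and J, 10.9 ± 0.0410, against 8.0 ± 0.0747 for TRBJ1-3, the fewest.

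**Figure D3:**
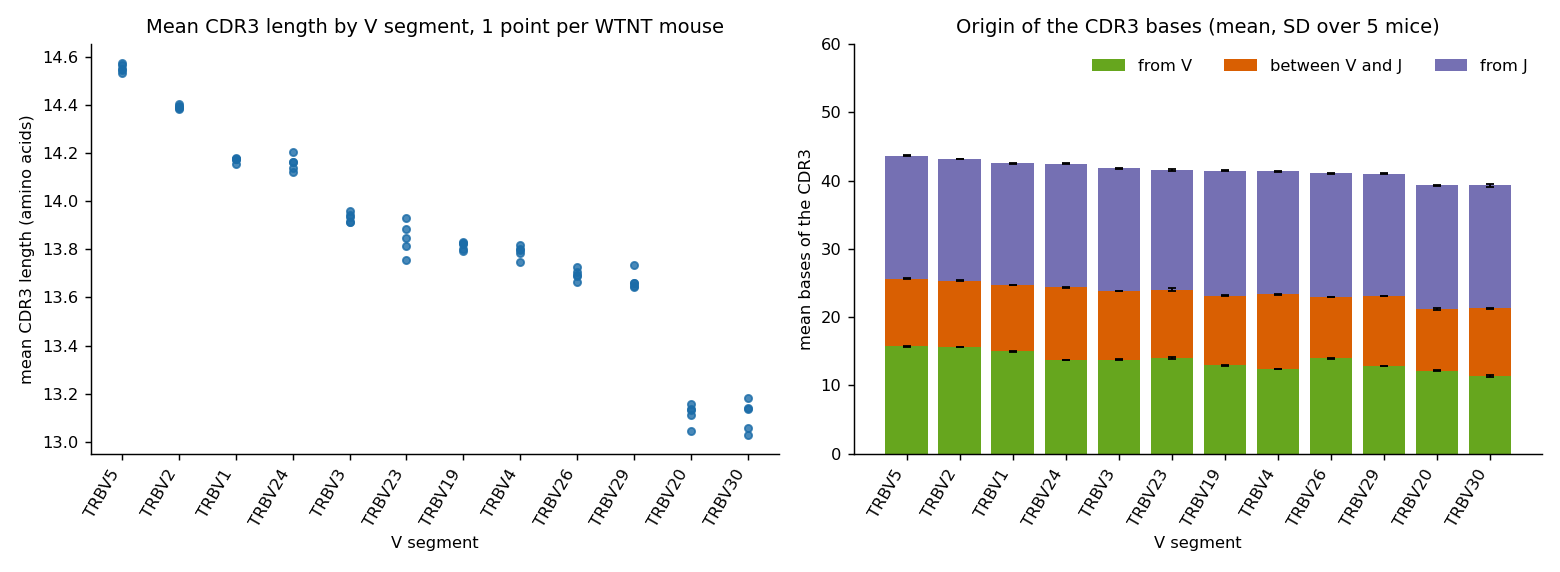
Left, mean CDR3 length in amino acids for each V segment, 1 point per WTNT mouse. Right, the mean number of CDR3 bases that come from V, lie between V and J, or come from J, with the SD over 5 mice as error bars. Points of a segment lie within a small fraction of 1 residue, with TRBV5 at 14.6 at one end and TRBV20 and TRBV30 at 13.1 at the other, and the part from V falls from 15.7 to 11.4 bases.

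A D segment was assigned by the authors to 80.2% ± 0.183 of TRBJ2 clonotypes, of which 45.4% ± 0.249 had TRBD1 and 54.6% ± 0.249 TRBD2. It was assigned to 69.4% ± 0.315 of TRBJ1 clonotypes, of which 90.3% ± 0.227 had TRBD1. TRBD2 lies 3′ of the TRBJ1 cluster and is not normally joined to it, yet it made up 9.71% ± 0.227 of the D segments assigned in TRBJ1 clonotypes, so that assignments from short matches are uncertain. Matched lengths were 7.34 ± 0.0722 bases for TRBD2 in TRBJ1 clonotypes and 9.24 ± 0.0280 in TRBJ2 clonotypes.

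Residues were read position by position in CDR3s of 14 amino acids. The ends were set by the segments. Position 1 was C in 99.7% ± 0.0514 of clonotypes and position 14 was F in 99.4% ± 0.0778. Position 2 was A in 81.8% ± 0.398 and T in 15% ± 0.387, position 3 was S in 83.2% ± 0.311 and C in 14.8% ± 0.363, and position 4 was S in 90.5% ± 0.322. TRBV1 carried 98.9% ± 0.118 of the T at position 2 and 99.6% ± 0.221 of the C at position 3. The first 3 residues were CTC in 98.3% of TRBV1 clonotypes, CGA in 96.6% of TRBV20 clonotypes and CSS in 96.5% of TRBV23 and 94.9% of TRBV30 clonotypes, while the other 8 V segments began with CAS in 96.8% to 98.4%.

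The middle was mixed and rich in glycine. The most frequent residue was L at position 5 with 23% ± 0.386, then G at position 6 with 25.8% ± 0.295, at position 7 with 38.8% ± 0.261, at position 8 with 40.1% ± 0.378 and at position 9 with 18.3% ± 0.160. Position 10 was led by D with 17.7% ± 0.477. From there J residues took over, with E in 40.9% ± 0.500 and T in 38.9% ± 0.720 at position 11, Q in 53.1% ± 0.490 at position 12 and Y in 71.3% ± 0.739 at position 13. Shannon entropy, which is 0 where 1 residue holds all clonotypes, was highest at position 9 with 3.47 ± 0.00587 bits and position 5 with 3.46 ± 0.0175 bits, and lowest at position 1 with 0.0408 ± 0.00552 bits.

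WTNT repertoires were made of very many small clones. The median clonotype had 15, 18, 16, 18 and 15 reads in mice 1 to 5, and 20.5% ± 0.552 of clonotypes had a single read. Clonotypes under 10 reads were 39.6% ± 1.87 of all clonotypes but 5.27% ± 0.903 of reads. It took 19.3% ± 0.264 of the clonotypes to hold 50% of the reads. The 100 largest clonotypes held 1.69%, 2.04%, 1.81%, 2.70% and 1.59% of reads, and mouse 4 was the highest.

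Even the largest clonotypes were below 1% of a library. Mouse 4 had the largest share, 0.649% (95% Wilson interval 0.637% to 0.663%), held by the TRBV13-2 clonotype of the deletion list. The same clonotype led mouse 2 with 0.229% (0.222% to 0.236%). Without that clonotype the leading one in mouse 4 was TRBV4 TRBJ1-2 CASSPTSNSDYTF with 0.123% (0.118% to 0.129%). Mouse 1 was led by TRBV24 TRBJ1-6 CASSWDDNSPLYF with 0.0709% (0.0665% to 0.0755%), in no other WTNT or d105 library. Mouse 3 was led by TRBV2 TRBJ2-4 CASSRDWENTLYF, printed above, with 0.0900% (0.0851% to 0.0950%), likewise found nowhere else at d105. Mouse 5 was led by a TRBV19 TRBJ2-3 clonotype with 0.0877% (0.0833% to 0.0923%), which had 1464 reads there, 2194 reads in mouse 2 and none in the other WTNT mice or in any MMTV-PyMT mouse at d105. The leading clonotypes of mice 1, 4 (after the deletion list) and 5 are printed with the bases between V and J in capitals.
TRBV24 TRBJ1-6, mouse 1: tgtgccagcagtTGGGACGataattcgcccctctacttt
TRBV4 TRBJ1-2, mouse 4: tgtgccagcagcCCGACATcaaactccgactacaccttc
TRBV19 TRBJ2-3, mouse 5 and mouse 2: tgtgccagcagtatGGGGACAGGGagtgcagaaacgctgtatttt

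Most receptors were found in 1 WTNT mouse. The 5 libraries together held 260539 amino acid clonotypes, of which 229415 (88.1%) were in 1 mouse, 21075 in 2, 6266 in 3, 2547 in 4 and 1236 (0.474%) in all 5. Of 318490 nucleotide clonotypes 129 (0.0405%) were in all 5. In sets of 4 mice, 1626 amino acid clonotypes were in all 4 without mouse 5, against 1718 to 1851 in the other 4 sets, and mice 1, 3 and 4, which leave out both mouse 2 and mouse 5, shared 2628. Within a mouse, the clonotypes found in all 5 made up 2.03% ± 0.209 of amino acid clonotypes and 5.84% ± 0.360 of reads, those found in that mouse alone 74.8% ± 0.473 of clonotypes and 63.7% ± 0.663 of reads.

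Receptors shared by more mice had shorter joints and more reads. Bases between V and J averaged 10.9 ± 0.0346 in clonotypes of 1 mouse, then 8.80 ± 0.0455, 7.96 ± 0.0348, 7.46 ± 0.0370 and 6.90 ± 0.0204 in those of 2, 3, 4 and 5 mice. Overlapping V and J matches entered these means as negative numbers. The 5 mice did not overlap between any of these classes. Untemplated bases, those between V and J without the matched D bases, averaged 4.19 ± 0.0408 in clonotypes of 1 mouse and 1.78 ± 0.0388 in those of 5. Where no D segment was assigned, all bases between V and J counted as untemplated, here and below. Median reads per clonotype, summed over its nucleotide forms, were 14.2 ± 1.30 in clonotypes of 1 mouse and 45.9 ± 4.34 in those of 5, and the number of nucleotide forms per amino acid clonotype within a mouse was 1.04 ± 0.00317 and 2.00 ± 0.136. The difference in median reads, 31.7, was 24.6 by nucleotide clonotypes, 21.2 after thinning and 32.8 at 10 or more reads. Leaving out mice changes the shared class, from clonotypes of all 5 mice to those of all mice that remain. The difference in median reads was 25.75 to 27.75 without any 1 mouse and 19.7 without mice 2 and 5. A clonotype with more reads is also more often detected, and the 2 were not separated. Without mice 2 and 5, the difference between clonotypes of all the other 3 mice and those of 1 mouse was -3.40 bases, against -4.01 for the 5 mice.

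Shared receptors drew on some segments more than others. TRBJ2-7 was in 31.9% of the amino acid clonotypes of all 5 mice and 19.7% of those of 1 mouse, TRBV1 in 25.7% and 13.8%, and TRBV5 in 14.6% and 10.3%. TRBV29 ran the other way with 1.78% and 7.13%, as did TRBV26 with 1.29% and 5.41%, and TRBV23 and TRBV30 had none among the 1236. The 1236 clonotypes were found in a mean of 12.9 of the 18 MMTV-PyMT libraries at d105, and 99 of them in all 18, while those of 1 WTNT mouse were found in a mean of 0.596.

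The shared receptor with most nucleotide forms was the TRBV1 TRBJ2-7 receptor shown first above, with 24 forms over the 5 mice. Its first 4 forms by number of mice and reads are printed with the bases that differ from the first form in capitals, and all 4 encode the same protein.
Form 1, in 5 mice with 22, 11, 18, 15 and 30 reads: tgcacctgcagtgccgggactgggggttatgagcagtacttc
Form 2, in 5 mice with 18, 12, 14, 15 and 20 reads: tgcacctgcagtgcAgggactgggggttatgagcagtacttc
Form 3, in 4 mice with 15, 26, 63, 0 and 29 reads: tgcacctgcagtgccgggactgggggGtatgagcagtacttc
Form 4, in 4 mice with 0, 27, 28, 29 and 45 reads: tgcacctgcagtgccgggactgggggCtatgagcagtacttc
Each of the last 3 forms differs by 1 base from the first.

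The most abundant shared receptor outside the deletion list was TRBV4 TRBJ2-7 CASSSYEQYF, only 10 residues long. It took 0.0429%, 0.0488%, 0.0275%, 0.0409% and 0.0355% of reads in mice 1 to 5, in 8 nucleotide forms, and was found in all 18 MMTV-PyMT libraries at d105. Its leading form had 381, 362, 386, 319 and 337 reads, and its V and J matches overlap, so that no base lies between them.
TRBV4 TRBJ2-7 form 1: tgtgccagcagctcctatgagcagtacttc
TRBV4 TRBJ2-7 form 2: tgtgccagcagctcGtatgagcagtacttc
Form 2 had 38, 201, 0, 77 and 74 reads. TRBV26 TRBJ1-1 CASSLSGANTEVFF was uneven by contrast, with 47, 2081, 210, 48 and 903 reads, and its form with 2081 and 837 reads was in mice 2 and 5 alone among the WTNT mice. The other shared receptors among the first 10 by mean share of reads were TRBV4 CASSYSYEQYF, TRBV2 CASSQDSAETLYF, TRBV5 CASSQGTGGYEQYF, TRBV19 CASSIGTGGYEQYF, TRBV3 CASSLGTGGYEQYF, TRBV1 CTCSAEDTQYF and the deletion list's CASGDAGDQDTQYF and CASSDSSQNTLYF. Those outside the list averaged 0.0233% to 0.0391% of reads, and 6 of them were in all 18 MMTV-PyMT libraries at d105. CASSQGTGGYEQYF, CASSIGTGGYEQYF and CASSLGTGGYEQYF differ at 1 residue and were made from 3 different V segments, in 12, 12 and 13 nucleotide forms.

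**Figure D4:**
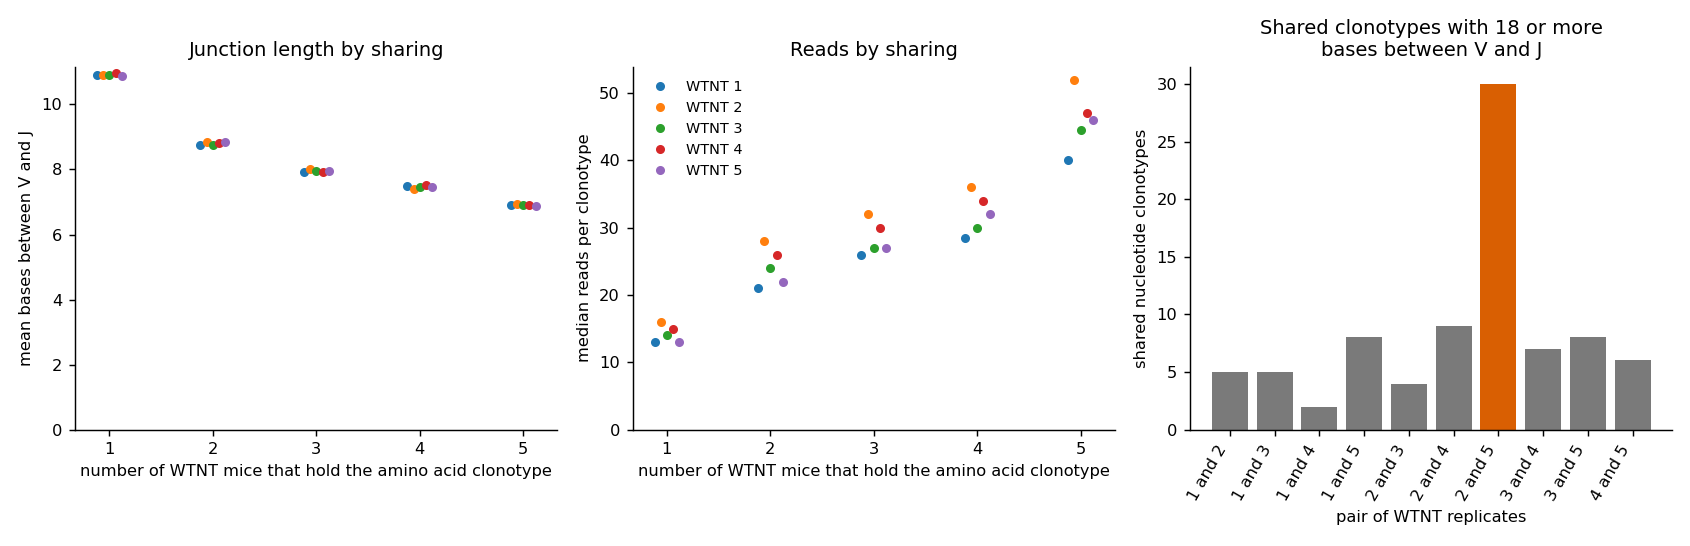
Left and middle, mean bases between V and J and median reads per clonotype (summed over nucleotide forms) of amino acid clonotypes found in 1 to 5 WTNT mice, with 1 point per mouse. Right, nucleotide clonotypes with at least 18 bases between V and J shared by each of the 10 pairs of WTNT mice. Joints shorten from 10.9 to 6.90 bases as more mice share a clonotype, and mice 2 and 5 stand apart with 30 shared long joints.

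Overlap between mice was measured in 2 ways. The Jaccard index, the share of amino acid clonotypes of 2 mice that both hold, was taken after thinning each library to 1090573 reads. It averaged 0.0594 over the 10 pairs of WTNT mice, from 0.0558 to 0.0685 with mice 2 and 5 the highest, against 0.0540 over all choices of 5 of the 23 mice at d105 (exact permutation over 33649 choices of mice, 2-sided, p = 0.199). Without mice 2 and 5 it was 0.0574 (exact permutation, p = 0.405). Over pairs of mice its median was 0.0585 within WTNT, 0.0569 between WTNT and MMTV-PyMT mice and 0.0535 within MMTV-PyMT. By nucleotide clonotypes the WTNT mean was 0.0173 (exact permutation, p = 0.147). The Morisita-Horn index, which weights shared clonotypes by reads, averaged 0.234 in WTNT mice against 0.193 over all choices (exact permutation, 2-sided, p = 0.0235). Without mouse 2 it was 0.205 against 0.189 over all choices (exact permutation, p = 0.406), and without mouse 5 it was 0.228 against 0.191 (exact permutation, p = 0.0776). Without both it was 0.192 against 0.187 (exact permutation, p = 0.857). Leaving out the deletion list gave 0.220 against 0.181 (exact permutation, p = 0.0188), and leaving out the list and mice 2 and 5 gave 0.203 against 0.177 (exact permutation, p = 0.257). For mice 2 and 4 the index was 0.349 with the list and 0.191 without it.

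Segment use was set against the MMTV-PyMT mice at d105 by limma on log2 of the percent of clonotypes plus 0.01, in a fit of all 23 libraries in 5 groups. Of 24 segments 2, or 8.33%, passed at an adjusted p under 0.05, and 5 had an unadjusted p under 0.05. TRBV20 was higher in WTNT mice, with 1.74%, 1.66%, 1.68%, 1.63% and 1.59% in mice 1 to 5, while the MMTV-PyMT mice had a lowest of 1.17%, a median of 1.44% and a highest of 1.64%. The sets overlapped, with 5 of 18 MMTV-PyMT mice above the lowest WTNT mouse (log2 difference 0.20, SE 0.06, adjusted p = 0.0340, limma). The 4 PLX+PTX+aPD-1_NR mice ran from 1.58% to 1.64%, the lowest of them below every WTNT mouse. The highest PLX+PTX+aPD-1_R mouse had 1.64% and the highest PLX+PTX mouse 1.60%. TRBV29 was lower in WTNT mice, with 6.24%, 6.13%, 6.25%, 6.16% and 5.87%, while the MMTV-PyMT mice had a lowest of 5.99%, a median of 6.50% and a highest of 6.99% (log2 difference -0.08, SE 0.02, adjusted p = 0.0340, limma). Here 5 of 18 MMTV-PyMT mice lay within the WTNT range. The PTX mice ran from 5.99% to 6.18%, PLX+PTX+aPD-1_NR from 6.03% to 6.44%, PLX+PTX from 6.17% to 6.90% and PLX+PTX+aPD-1_R from 6.37% to 6.99%. The next by p was TRBJ1-3, with 2.54% ± 0.0568 in WTNT mice and 2.44% ± 0.0848 in MMTV-PyMT mice (n = 5 and 18; log2 difference 0.06, adjusted p = 0.123, limma).

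These 2 calls depended on the settings. No segment passed by reads, by normalized clone count, for clonotypes of at least 10 reads, without the filter on low shares, or with all MMTV-PyMT mice as 1 group, by limma in each case. None passed when any one of the 5 WTNT mice was left out, nor without PLX+PTX+aPD-1_R mouse 4 or PLX+PTX mouse 1, 4, 5 or 6, while 1 passed without PLX+PTX+aPD-1_R mouse 3 and 4 without PLX+PTX+aPD-1_NR mouse 1. The edgeR test on clonotype numbers called 2 and DESeq2 called 1.

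**Figure D5:**
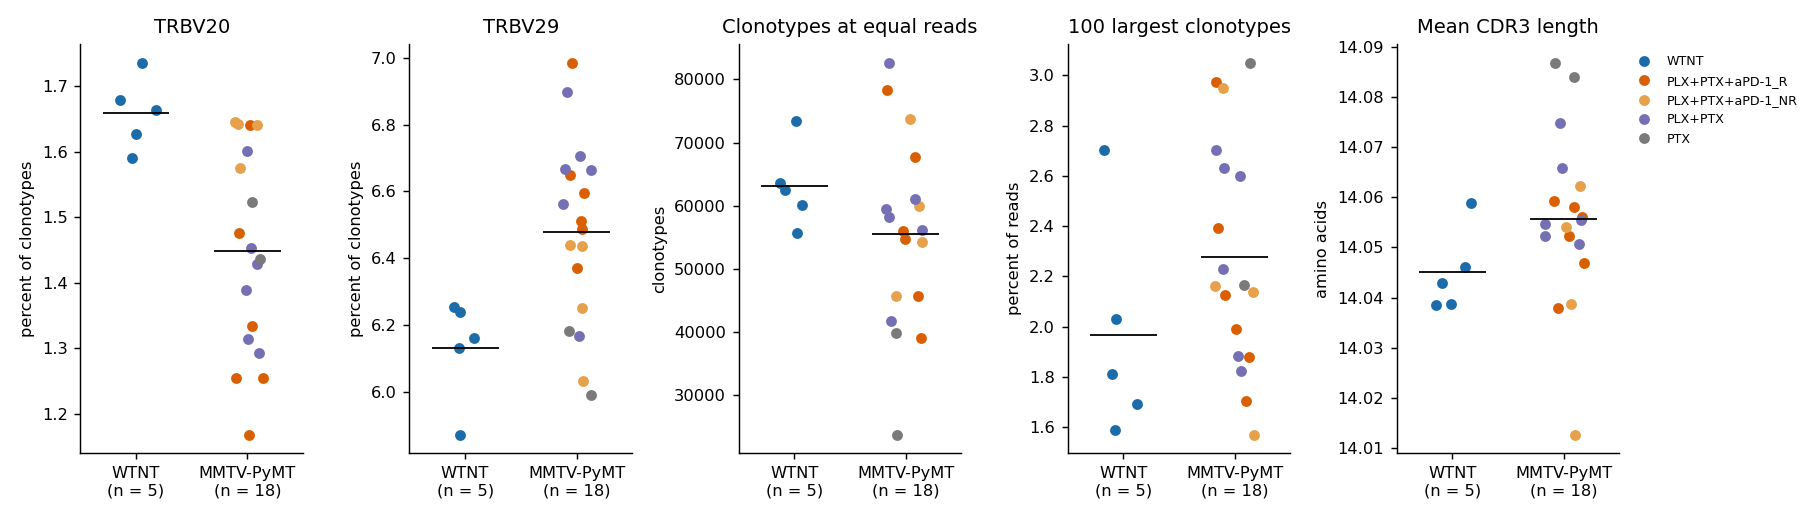
TRBV20 and TRBV29 in percent of clonotypes, clonotypes at equal reads, percent of reads in the 100 largest clonotypes and mean CDR3 length, with 1 point per mouse, the 5 WTNT mice left of the 18 MMTV-PyMT mice at d105 and a line at each mean. The points overlap in every panel, and the means of TRBV20 are 1.66% and 1.45%.

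Pairs, lengths and residues gave no call. Of 118 pairs of V and J segments with at least 0.1% of clonotypes none (0%) passed by limma, 16 had an unadjusted p under 0.05, edgeR called 0 and DESeq2 called 1. The smallest adjusted p were those of TRBV20 with TRBJ2-1 (log2 difference 0.24, adjusted p = 0.0511), TRBV29 with TRBJ2-7 (-0.14, adjusted p = 0.0511) and TRBV29 with TRBJ2-4 (-0.18, adjusted p = 0.0878), the same 2 V segments as above. Between 1 and 3 pairs passed without any one of PLX+PTX+aPD-1_NR mice 1 to 4, PLX+PTX+aPD-1_R mouse 6, PLX+PTX mouse 5, PTX mice 1 and 2, or WTNT mouse 3. Of 11 V segments none (0%) passed for mean CDR3 length by limma and 1 had an unadjusted p under 0.05: TRBV24, at 14.16 ± 0.0320 in WTNT mice and 14.21 ± 0.0419 in MMTV-PyMT mice (difference -0.048, adjusted p = 0.130). TRBV23 differed by -0.057 (adjusted p = 0.350, limma) and TRBV3 by -0.021 (adjusted p = 0.440, limma). Without WTNT mouse 4, 1 segment passed.

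Residues were compared at length 14, for those of at least 1% at a position, by limma on log2 of the percent plus 0.1. None (0%) passed, and 23 had an unadjusted p under 0.05. The latter number was 9 of 109 residues tested at length 15 and 8 of 101 weighted by reads. It stayed at 23 with all MMTV-PyMT mice as 1 group, and was 23 of 104 without PLX+PTX+aPD-1_NR mouse 3. None passed in these settings either. Q at position 9 was at 16.2% ± 0.310 in WTNT mice and 15.6% ± 0.402 in MMTV-PyMT mice (log2 difference 0.05, adjusted p = 0.0965, limma). C at position 3, nearly all of it TRBV1, was at 14.8% ± 0.363 in WTNT mice and 15.6% ± 0.472 in MMTV-PyMT mice (-0.07, adjusted p = 0.0965, limma). T at position 11 was at 38.9% ± 0.720 in WTNT mice and 37.9% ± 0.725 in MMTV-PyMT mice (0.04, adjusted p = 0.102, limma). Leaving out PTX mouse 1 gave 8 calls, WTNT mouse 3 or PLX+PTX mouse 3 gave 3, and WTNT mouse 2 or PLX+PTX mouse 6 gave 1.

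The 8 measures of the whole repertoire were compared at 1090573 reads per library by an exact permutation test over 33649 choices of mice, 2-sided, and none passed, with adjusted p from 0.445 to 0.959 and no unadjusted p under 0.05. WTNT mice held 63566, 62471, 60133, 55695 and 73362 clonotypes, and MMTV-PyMT mice a lowest of 23679, a median of 56042 and a highest of 82678. The difference of 7596 clonotypes was smaller than the SD of 14833 over the MMTV-PyMT mice (exact permutation, p = 0.282), and without 1 WTNT mouse it ran from 5017 without mouse 5 to 9434 without mouse 4. The 100 largest clonotypes held 1.96% ± 0.445 of reads in WTNT mice and 2.28% ± 0.451 in MMTV-PyMT mice, a difference of -0.311 points (exact permutation, p = 0.186). Without WTNT mouse 4 this difference was -0.496 points (exact permutation, p = 0.0436, adjusted p = 0.322), and by normalized clone count it was -0.513 points (exact permutation, p = 0.0569). Mean CDR3 length was 14.05 ± 0.00833 in WTNT mice and 14.06 ± 0.0170 in MMTV-PyMT mice (exact permutation, p = 0.194), and untemplated bases were 3.61 ± 0.0307 in WTNT mice and 3.58 ± 0.0538 in MMTV-PyMT mice (exact permutation, p = 0.241). A p above the threshold does not show that the 2 sets are alike, and 5 mice set the precision.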

How the data were processed

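Each deposited table lists 1 TRB clonotype per row with its segments, its CDR3 and its clone count. Per the file headers, the clone count is a count of reads as deposited by the authors, with no normalization. Besides, each deposited table holds a score named normalized clone count and another named nb clone count, which the authors rescaled from the clone count and rounded, without a stated method. Over the WTNT clonotypes of at least 100 reads, either score divided by the reads varied by at most 1.29% (coefficient of variation) within each of 68 pairs of V and J. Software for alignment and clonotype calling, and the build, were not given in the sources used here. Each file listed productive CDR3s only (0 unproductive entries). Libraries at d105 held 1090573 to 2831566 reads.

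Segment names were matched to RefSeq (34 of 34 listed), and D bases, V ends and J starts were taken from the deposited alignments. Shares were computed per mouse over nucleotide clonotypes and tested with limma 3.58.1 in R 4.3.3. The edgeR 4.0.16 quasi-likelihood test and DESeq2 1.42.0 on clonotype numbers served as alternatives, alongside other weightings, pseudocounts, filters (10 reads, expected numbers, low shares) and leaving out each mouse. Single values were tested by exact permutation over mice with Python 3.11.15, after thinning to 1090573 reads where stated. Segments and pairs in the comparison needed a mean share of 0.1%, residues 1%, and V segments 200 clonotypes in every library for length. The fits were checked on simulated data. Replicate numbers were given in accession order and pair no mice. The labels give each library an identifier but do not say that libraries came from separate animals, so p-values measure the spread between these libraries.

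Named were all segments of at least 0.1%, the 5 pairs furthest from 0 on each side with 1 sign in all mice, items past the threshold or, where none passed, the 3 of smallest p, the largest clonotype of each mouse, the 10 shared clonotypes of highest mean read share, and the most frequent residue at each position. TRBJ1-3 as the next segment by p, the second clonotype of mouse 4, TRBV26 with TRBJ2-3, the receptor of most nucleotide forms, second residues and the long-joint examples were chosen after their values were seen. The libraries and the lists were chosen with earlier results of these data known. The long-joint counts, and the sharing results without mice 2 and 5 or without the deletion list, were added after the data were seen.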

Additional observations from a re-analysis of the deposited data

Results flagged for a closer look

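Within the 5 WTNT mice, 64 groups of 5 values were screened for a mouse that stands apart from the other 4 by Dixon's test at the 95% level, and 6 were found; chance alone gives about 1 in 20. WTNT mouse 3 was the lowest for TRBV19 with 8.61% of clonotypes and the highest for TRBJ2-7 with 21.7%. WTNT mouse 4 was the lowest for TRBJ1-1 with 6.71% of clonotypes, the lowest for mean CDR3 length with TRBV1 at 14.16 residues and the highest for mean CDR3 length with TRBV29 at 13.74 residues. WTNT mouse 3 was also the lowest for the shared receptor TRBV2 TRBJ2-3 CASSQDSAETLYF, with 0.00990% of reads.

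In data outside the comparisons, WTNT mouse 1 and PLX+PTX+aPD-1_R mouse 1 at d95 shared 25 nucleotide clonotypes with at least 18 bases between V and J, where the median over all 666 pairs of libraries was 3. The labels give these 2 libraries different genotypes and times. Only the pair of WTNT mice 2 and 5 with 30, and PLX+PTX mice 1 and 2 at d105 with 27, shared more.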

How the results depend on the processing

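No paired analysis was possible because the labels give the groups no shared replicate numbers, and numbers given in accession order pair no mice. Depth limits the small segments: 39.6% of WTNT clonotypes had fewer than 10 reads, and 5 WTNT mice limit every comparison. The share of TRBV24 in WTNT mice, 16.7% of clonotypes, was 19.7% by reads, 7.96% by normalized clone count, 13.7% by nb clone count and 19.1% for clonotypes of at least 10 reads. Segments that differed from MMTV-PyMT mice numbered 2, with 0 by reads, by normalized clone count, at 10 or more reads, without the share filter and with 2 groups, 1 by DESeq2 and 0 to 4 without 1 mouse. Pairs of V and J numbered 0, with 1 by DESeq2 and 0 to 3 without 1 mouse; CDR3 lengths 0, with 0 to 1 without 1 mouse; residues 0, with 0 to 8 without 1 mouse. Within WTNT mice 98 to 103 pairs were called without 1 mouse, against 110, and 11 V lengths in each case. The Jaccard index of 0.0594 was 0.0576 to 0.0609 without 1 mouse, and the nucleotide index 0.0160 to 0.0181. The Morisita-Horn index of 0.234 (exact permutation, p = 0.0235) was 0.205 to 0.256 without 1 mouse (0.228 without mouse 5), 0.192 without mice 2 and 5, and 0.203 without them and the deletion list, with p above 0.05 without mouse 2, without mouse 5 and in both of the last. Joints of clonotypes in all mice against those in 1 differed by -4.01 bases, by -6.05 as nucleotide clonotypes, -3.79 at 10 or more reads, -3.79 to -3.70 without 1 mouse and -3.40 without mice 2 and 5.

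Directions reversed as follows, and the cause was not tested. At 10 or more reads, the log2 differences of TRBV29 and TRBJ1-3 from MMTV-PyMT mice were 0.017 and -0.014. By reads, the length differences of TRBV23 and TRBV3 were 0.013 and 0.018 residues. At length 15, T at position 11 differed by -0.0054. By normalized clone count, the pairing of TRBV1 with TRBJ1-5 was -0.13 and of TRBV19 with TRBJ1-5 0.59, and the 10 largest clonotypes differed by -0.175 points of that count. Within WTNT mice, TRBV23 lay above the mean over segments by reads (0.21) and at 10 or more reads (0.10), and its value without 1 mouse ran from -0.0296 to 0.0099; TRBV3 lay at -0.043 by reads and -0.038 at 10 or more reads. Without 1 WTNT mouse the difference in the 10 largest clonotypes ran from -0.145 to 0.0667 points and that in the deletion list from -0.0290 to 0.174.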
